A study of Mus musculus with 6 samples.

Results

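Genes of DNA repair and of the DNA damage checkpoint were followed in livers of mouse embryos that lacked the retinoblastoma gene. The set comprised 47 named genes of double-strand break repair, excision repair, mismatch repair, crosslink repair and checkpoint signalling. Its members were all probe sets that the annotation of the array gives to exactly 1 of these genes. They were 58 probe sets for 43 genes, of 10833 probe sets for 8251 genes in all. Lig4, Atr, Tdg and Fanca had no probe set with a single symbol and were not analysed here.

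The samples were 6 untreated embryos at embryonic day 12.5 from matings of Rb heterozygous 129sv mice. The 3 Rb null embryos and the 3 wild type embryos (n = 3 per genotype throughout) each gave 1 fetal liver, which was dissected and disaggregated in PBS, and 1 Affymetrix array per liver was made from 6 ug of total RNA. The allele was a germline null, so that every cell of the liver and of the embryo carried it, and the comparison asks which transcripts differ between these whole livers. In a whole tissue, fewer cells of a type and less RNA per cell cannot be told apart.

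DNA repair pathways differ in the lesion that they mend. Base excision removes small damaged bases and nucleotide excision removes bulky adducts. Mismatch repair corrects replication errors, the Fanconi anaemia proteins deal with crosslinks, and double-strand breaks are mended by homologous recombination or by end joining. The kinases Atm and Atr sense breaks and stalled forks, and pass the signal to Chek2 and Chek1 to hold the cell cycle. The retinoblastoma protein holds back E2F transcription factors, and several repair and checkpoint genes are known E2F targets in cycling cells. Fetal liver at this age is filled with dividing erythroid cells, in which such genes are active.

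Because of this link the promoter windows of the members were read for E2F-type motifs. The windows, from RefSeq on mouse build GRCm38.p6, run from 250 bases before to 50 bases after a gene's start. The motifs were TTTCCCGC, TTTGGCGC, TTTCGCGC and TTTGCCGC, searched on both strands. Of the 47 members 37 had a window, and 6 of these (16.2%) held a motif. The share was 5.38% of the 4295 tested genes with a window and 2.61% of all 27025 genes with one, while 2.26% of all 32851 windows of this length held a motif. The members were Brca2, Xrcc6, Chek2, Msh3, Msh6 and Fancg. The stretches before the start of 5 of them are printed because Xrcc6 carries the firmest difference described further on and the others hold a searched motif and did not pass the test. The motif of Msh6 began at base 16 after the start and is not printed. Of members with a window, a motif was held by 1 of 3 that fell and 0 of 1 that rose. It was held by 4 of 26 that did not pass and 1 of 7 not tested. Chek1, Ddb1 and Atm, called further on, had windows without a motif. A link between motif and change was not tested. Capitals mark the motif, which in Msh3 is a pair of overlapping motifs, and each sequence is written 5′ to 3′ on the strand of its gene.
Xrcc6 (chr15:82016293-82016360, plus strand, motif starting 46 bases before the start): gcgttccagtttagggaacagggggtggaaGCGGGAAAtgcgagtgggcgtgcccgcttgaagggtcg
Fancg (chr4:43010316-43010383, minus strand, 52 bases before): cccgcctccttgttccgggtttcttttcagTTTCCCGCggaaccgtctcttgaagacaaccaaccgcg
Chek2 (chr5:110839801-110839868, plus strand, 152 bases before): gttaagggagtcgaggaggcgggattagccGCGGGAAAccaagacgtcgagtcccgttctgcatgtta
Brca2 (chr5:150522423-150522490, plus strand, 168 bases before): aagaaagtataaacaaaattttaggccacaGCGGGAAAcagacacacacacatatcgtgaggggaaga
Msh3 (chr13:92355164-92355235, minus strand, 202 bases before): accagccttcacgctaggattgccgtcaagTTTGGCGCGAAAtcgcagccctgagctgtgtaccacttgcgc

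Levels are MAS5 signals, which summarise the brightness of the probes of a probe set, given as mean ± SD. A change is the mean of Rb null livers less that of wild type livers, after adding an offset of 50.02 to each signal and taking log2. Changes are given ± SE, and they understate the change of dim genes. Testing with limma kept probe sets whose signal averaged more than 150.1 over the 6 arrays, with p-values adjusted over all 6793 tested probe sets and a threshold of 0.05. Where a gene had several tested probe sets, the brightest stood for it. Of the 43 members on the array 38 were tested. Rad54l, Rad9a, Xpc, Msh6 and Mgmt lay below the signal filter on every probe set.

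Rb1 itself read 136 ± 7.52 in livers labelled Rb null, against 750.1 ± 42.3 in those labelled wild type. The sources used here do not give the place of its probes relative to the deletion. The median signal of the arrays lay between 197 and 203 for Rb null livers, above the 176 to 186 of wild type livers (two-sided exact permutation p = 0.1, and no smaller p is possible with 3 against 3). The ratio of 3 prime to 5 prime signal of the Gapdh controls was 0.829 to 0.888 on Rb null arrays against 0.915 to 0.924 on wild type arrays. That of the actin controls leaned the other way, at 1.19 to 1.31 against 1.12 to 1.21, with overlap (two-sided exact permutation p = 0.2). Summed signals of erythroid markers spanned 32870 to 35029 for Rb null against 44163 to 47545 for wild type livers, with 7 of 9 tested markers lower. Those of 29 replication and S phase genes, of which 25 had a probe set, ran from 46080 to 46989 against 53127 to 55910, with 8 of 22 tested genes lower. Summed macrophage (3 of 9 tested higher), megakaryocyte (2 of 3), granulocyte (5 of 8), endothelial (3 of 7), mesenchyme (4 of 7) and progenitor (2 of 6) markers were above the wild type range in every Rb null liver. Of all tested genes 13.1% were higher and 9.5% lower. No marker with a probe set was at 0. Summed hepatoblast markers lay below the wild type range, with Alb and Apoa1 lower. The other 6 of 8 tested did not pass, and 5 of the 8 had a positive change (median 0.12). Summed heat shock and immediate early genes lay above the wild type range, with Ier2, Hspa1a and Hspa1b higher (3 of 6 tested). Egr1 (0.33) did not pass, nor did Dusp1 (-0.15) and Dnajb1 (-0.16), whose changes were negative. The part of any of these in the results on repair genes was not tested.

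Few repair and checkpoint genes passed the test. Of the 38 tested members, 1 rose in Rb null livers (2.63%, against 13.1% of all tested genes) and 3 fell (7.89%, against 9.5%). The gene that rose was Atm, the kinase that senses breaks, and those that fell were Xrcc6, Chek1 and Ddb1. The other 34 did not pass. Atm was among the 14 members with a mean signal below 300, and the 3 that fell were among the 24 brighter ones. Of all 1235 tested genes below 300, 165 were higher and 11 lower. Of the 4038 at 300 or more, 525 were higher and 490 lower. The part of brightness in the calls of the members was not tested. Unadjusted p was below 0.05 for 6 of the 38 (15.8%), against 36.5% of all tested genes. The median change of the members was -0.01 and that of all tested genes 0.02, and the median size of a change regardless of sign was 0.11 against 0.16. Equal median scaling of the arrays turned the split of all calls from 690 higher and 501 lower to 497 and 836, and that of the members from 1 and 3 to 0 and 3.

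The precision of these values allows a bound as well. The 95% interval of the change lay within 1.5-fold in both directions for 35 of the 38 members (92.1%, against 81.5% of all tested genes). The exceptions were Atm, Ercc1 and Ercc3. This bound is on signal plus offset in the reported setting, and the fold in signal can be larger, most for dim members. Standard errors ran from 0.05 for Ung to 0.20 for Ercc1. They were larger for dim members, with a median of 0.13 for 14 members with a mean signal below 300 and 0.08 for the other 24. All 3 Rb null embryos lay above all wild type embryos for 5 members (13.2%, against 23.5% of all tested genes) and below them for 7 (18.4%, against 17.6%). Those above were Atm, Rad17, Lig3, Xpa and Fancg. Those below were Xrcc6, Chek1, Ddb1, Brca1, Rad52, Hus1 and Rad23b. A mean signal under 300 was found for 4 of those above and 1 of those below. Of all tested genes that dim, 26.3% had every Rb null embryo above every wild type embryo and 5.91% had every one below. Over the members, the median deviation from a gene's mean was between -0.02 and -0.0045 in Rb null embryos, below the 0.02 to 0.04 of wild type embryos. The two-sided exact permutation p was 0.1, the smallest possible, and the same value over all tested genes was not computed.

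**Figure D1:**
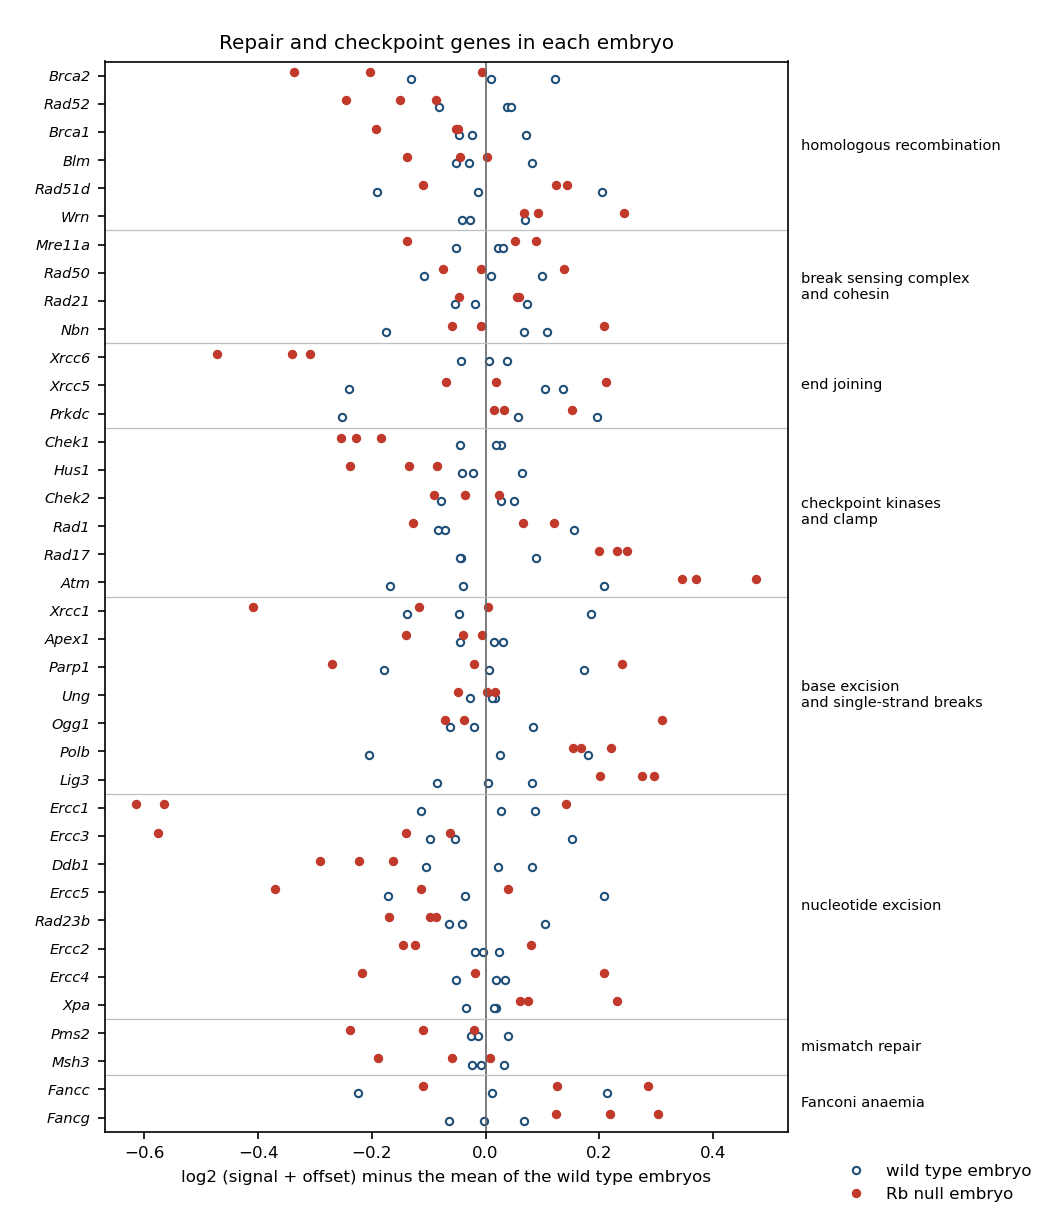
Level of each of the 38 tested members in each embryo, as log2 of signal plus offset minus the mean of the wild type embryos, with filled points for 3 Rb null and open points for 3 wild type embryos, grouped by pathway. Most members have overlapping groups, whereas the filled points of Xrcc6, Chek1 and Ddb1 lie left of all open points and those of Atm, Rad17 and Lig3 right of them.

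End joining held the member with the firmest difference, and 1 of its 3 tested members fell (33.3%, against 9.5% of all tested genes). Xrcc6 encodes Ku70, which with Ku80 forms the ring that binds broken DNA ends. Its signal was 518, 573 and 587 in the Rb null embryos and 759, 715 and 742 in the wild type embryos. All Rb null livers were below all wild type livers, at 75.7% of the wild type mean. The fall was 559 ± 36.2 against 739 ± 22.1 (-0.37 ± 0.07, limma adjusted p = 0.0097). It passed the threshold under each of the 18 alternatives, with adjusted p from 0.0044 to 0.038 and changes from -0.45 to -0.32. Xrcc6 was read by a single probe set, so no other probe set checks it. Alternatives in the handling of probe sets could therefore not change its estimate.

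The partners of Ku70 did not pass the test. Xrcc5, which encodes Ku80, read 253, 296 and 235 in Rb null against 271, 203 and 279 in wild type embryos (0.05 ± 0.13, limma adjusted p = 0.81). Another Xrcc5 probe set stayed at or below 1.8 signal units on every array. Prkdc encodes the catalytic subunit of the DNA-dependent kinase that the Ku ring recruits, and read 375, 342 and 337 against 348, 389 and 271 (0.07 ± 0.12, adjusted p = 0.75). The groups overlapped for both genes. The 95% intervals were -0.25 to 0.36 for Xrcc5 and -0.22 to 0.35 for Prkdc, while that of Xrcc6 was -0.54 to -0.21. A difference between Xrcc6 and its partners was not tested. Of the further end joining genes listed, only Polm, a gap-filling polymerase, was tested (0.19 ± 0.07, adjusted p = 0.072).

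Of 6 tested members of checkpoint signalling, 1 kinase rose and 1 kinase fell. Each is 16.7%, against 13.1% of all tested genes higher and 9.5% lower. Unadjusted p was below 0.05 for 3 of the 6 (50%, against 36.5% of all tested genes). The groups were apart for 66.7% of them, against 41.2% of all tested genes. Chek1 is the kinase that halts the cycle when forks stall. It read 941, 958 and 989 in Rb null and 1154, 1146 and 1094 in wild type embryos, with every Rb null liver below every wild type liver. The fall was to 85.1% of the wild type mean, at 963 ± 24.5 against 1131 ± 32.3 (-0.22 ± 0.06, limma adjusted p = 0.029). The call held without Rb null embryo 3 but was lost without any other embryo (adjusted p from 0.055 to 0.091). A block for the replicate number also ended it (adjusted p = 0.052), and the sign stayed negative throughout.

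Atm read 355, 327 and 320 in Rb null and 209, 286 and 233 in wild type embryos. The groups did not overlap, and the wild type embryos spread more widely than the Rb null ones. The rise was to 334 ± 18.7 from 243 ± 39.4 (0.40 ± 0.12, limma adjusted p = 0.043). It ended after quantile normalization (0.30, adjusted p = 0.10), equal median scaling (0.33, adjusted p = 0.077), and cyclic loess (0.30, adjusted p = 0.11). It also ended when the replicate number was a block (adjusted p = 0.063) or no signal filter was set (adjusted p = 0.087). It held without wild type embryo 2 but was lost without any other embryo (adjusted p from 0.071 to 0.13).

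The other checkpoint members did not pass. Rad17, which loads the checkpoint clamp onto DNA, read 426, 421 and 410 against 376, 339 and 338 without overlap (0.23 ± 0.08, limma adjusted p = 0.081). Hus1, a subunit of that clamp, read 349, 363 and 321 against 381, 375 and 408 (-0.15 ± 0.08, adjusted p = 0.24), also without overlap. Rad17 and Hus1, which work together, had estimates of opposite sign that both missed the threshold. A difference between them was not tested. Rad1, another clamp subunit (0.02 ± 0.10), and the Atm-dependent kinase Chek2 (-0.03 ± 0.07) overlapped between genotypes. Rad9a, the remaining clamp subunit, lay below the filter at 97.5 ± 7.81 against 79.9 ± 22.3. The further Hus1 probe sets were below the filter as well.

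Of 17 further checkpoint and damage signalling genes tested, 1 rose and 1 fell. Each is 5.88%, against 13.1% of all tested genes higher and 9.5% lower. H2ax encodes the histone variant that is phosphorylated around breaks. It read 4803, 4709 and 4958 in Rb null against 3932, 4096 and 4339 in wild type embryos (0.22 ± 0.05, limma adjusted p = 0.023). Cdc25a encodes the phosphatase that Chek1 marks for destruction, and read 1103, 1094 and 1108 against 1284, 1304 and 1373 (-0.25 ± 0.06, adjusted p = 0.016). Both had groups apart. The H2ax call ended after equal median scaling (0.15, adjusted p = 0.10), with no intensity trend (adjusted p = 0.058) and without Rb null embryos 1 or 3 or wild type embryos 1 or 2 (adjusted p from 0.059 to 0.070). For Cdc25a the adjusted p was 0.0504 without Rb null embryo 2, and it was 0.062 without wild type embryo 3.

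Homologous recombination copies the lost sequence from a sister chromatid. Of its 6 tested members none passed limma's threshold, and 0 had an unadjusted p below 0.05 (against 36.5% of all tested genes). Brca2, a mediator of strand exchange, read 943, 816 and 740 in Rb null and 955, 1036 and 861 in wild type embryos (-0.18 ± 0.10, adjusted p = 0.24). Wrn, a helicase lost in Werner syndrome, read 733, 643 and 655 against 644, 599 and 592 (0.13 ± 0.08, adjusted p = 0.25). The groups overlapped for both genes.

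Brca1, the partner that prepares ends for recombination, read 684, 759 and 761 against 762, 775 and 831 (-0.10 ± 0.07, limma adjusted p = 0.37). Its groups nearly touched. Rad52, an annealing factor, read 193, 204 and 178 against 227, 205 and 228 (-0.16 ± 0.10, adjusted p = 0.30), again nearly touching. Blm, the helicase of Bloom syndrome (-0.06 ± 0.07), and Rad51d, an accessory factor of recombination (0.05 ± 0.14), overlapped. Rad54l, a motor protein of strand invasion, lay below the filter at 59.3 ± 26.2 against 54.8 ± 17.2. Of 10 further recombination genes tested, 1 fell (10%, against 9.5% of all tested genes). This was Rpa1, the large subunit of the protein that coats single-stranded DNA, at 2791, 2841 and 3039 against 3373, 3388 and 3403 (-0.23 ± 0.05, adjusted p = 0.018). Its call ended after quantile normalization (-0.11, adjusted p = 0.14) and cyclic loess (-0.13, adjusted p = 0.083), and on leaving out Rb null embryos 1 or 2 or wild type embryos 1 or 3 (adjusted p from 0.0503 to 0.068).

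None of the 4 tested members of the break-sensing complex and cohesin passed limma's threshold. Its subunits are the nuclease Mre11a (0.0006 ± 0.09), the tether Rad50 (0.02 ± 0.09) and the adaptor Nbn. Nbn read 243, 291 and 233 in Rb null against 260, 268 and 211 in wild type embryos (0.05 ± 0.12, limma adjusted p = 0.82). Rad21, a cohesin subunit that holds sister chromatids together, read 3873, 4170 and 4159 against 3950, 3856 and 4211 (0.02 ± 0.06, adjusted p = 0.82). All 4 overlapped, and 0 had an unadjusted p below 0.05 (against 36.5% of all tested genes). The interval of Rad21, -0.11 to 0.15, was among the narrowest. The Mre11a probe set has the suffix letter s, which marks probes that can bind several transcripts, and is uncertain for that reason.

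**Figure D2:**
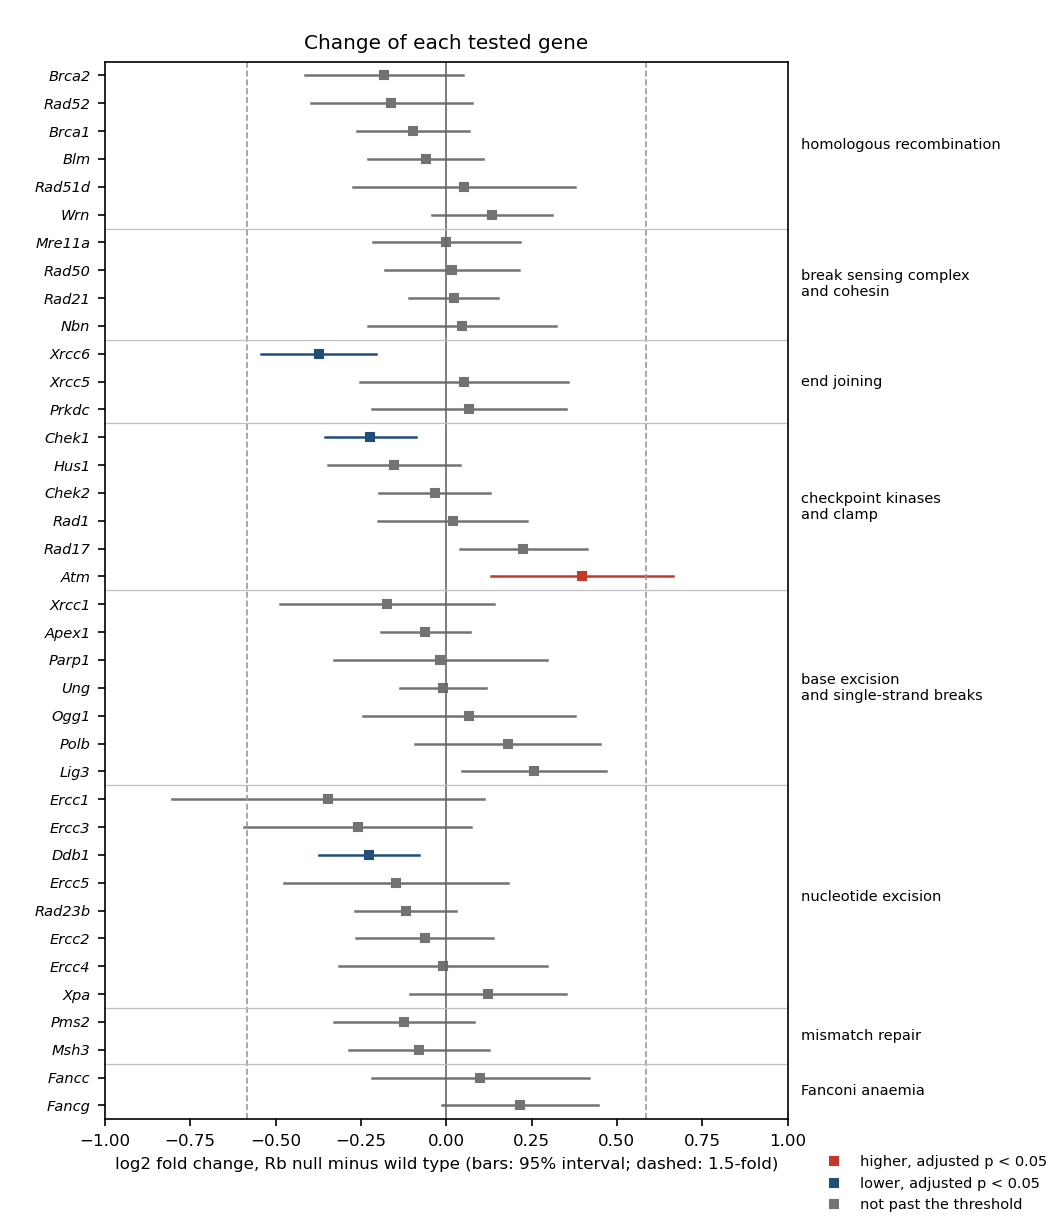
Change of each of the 38 tested members (squares, log2 Rb null minus wild type) with its 95% interval (bars), grouped by pathway. Dashed lines mark 1.5-fold of signal plus offset, and colours mark Atm, the member that rose, and Xrcc6, Chek1 and Ddb1, the members that fell. The bars of Atm, Ercc1 and Ercc3 cross a dashed line, and the other 35 lie between the lines.

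In base excision and single-strand break repair none of 7 tested members passed limma's threshold. An unadjusted p below 0.05 was found for 1 (14.3%, against 36.5% of all tested genes). This was Lig3, the ligase that seals the final nick, with 318, 324 and 300 in Rb null and 272, 255 and 237 in wild type embryos (0.26 ± 0.09, adjusted p = 0.080). The groups did not overlap. Without the intensity trend it passed (adjusted p = 0.047). A second Lig3 probe set read 316, 259 and 290 against 254, 272 and 250, with overlap (0.13 ± 0.10). Polb, the gap-filling polymerase, read 255, 252 and 266 against 226, 258 and 186 (0.18 ± 0.12, adjusted p = 0.31). Its Rb null embryos were close together and 1 wild type embryo lay among them.

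The glycosylases and the endonuclease at the start of the pathway had changes near 0. Ung, which removes uracil, read 1255, 1243 and 1197 against 1255, 1216 and 1250 (-0.01 ± 0.05). Its interval of -0.13 to 0.12 was the narrowest of the group, and its second probe set gave 0.02 ± 0.11. Ogg1, which removes oxidised guanine, gave 0.07 ± 0.14, and Apex1, the abasic site endonuclease, -0.06 ± 0.06. Xrcc1, the scaffold of the pathway, gave -0.17 ± 0.14 on its brighter probe set, which carries the suffix letter f, and 0.04 ± 0.10 on the other. Parp1, the sensor of strand breaks, read 871, 1053 and 725 against 1003, 887 and 776 (-0.02 ± 0.14). It varied widely in both genotypes and was read by a single probe set with the suffix letter f, which can bind several transcripts.

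Of 9 further genes of this pathway tested, 1 fell (11.1%, against 9.5% of all tested genes). Lig1, the ligase of replication and long-patch repair, read 1522, 1539 and 1523 in Rb null and 1901, 2076 and 1904 in wild type embryos (-0.35 ± 0.06, limma adjusted p = 0.0045). All Rb null livers were below all wild type livers, and the call held under each of the 18 alternatives (adjusted p from 0.0025 to 0.021).

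In nucleotide excision repair 1 of 8 tested members fell (12.5%, against 9.5% of all tested genes). Ddb1, an adaptor of the ubiquitin ligase that recognises ultraviolet lesions, read 5698, 5426 and 5939 in Rb null and 6187, 7047 and 6756 in wild type embryos (-0.23 ± 0.06, limma adjusted p = 0.039). The groups did not overlap. A second probe set, designed from the same sequence record according to the annotation, read 4823, 4539 and 4857 against 4676, 4798 and 4726, with overlap (0.001 ± 0.05, adjusted p = 0.99). The mean of the probe sets gave -0.11 (adjusted p = 0.18), quantile normalization -0.05 (adjusted p = 0.48) and cyclic loess -0.06 (adjusted p = 0.39). The call also ended with no signal filter (adjusted p = 0.081), with no intensity trend (adjusted p = 0.080) and without Rb null embryos 1 or 2 or wild type embryos 2 or 3 (adjusted p from 0.10 to 0.11). The second probe set carries the suffix letter g. Leaving out probe sets with suffix letters keeps the one that already stood for Ddb1, so the change stayed at -0.23. The call held there (adjusted p = 0.036), which cannot decide between the 2 probe sets. Ddb1 thus passed on 1 of its 2 tested probe sets.

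Rad23b, a partner of the damage sensor Xpc, read 1388, 1461 and 1471 against 1496, 1689 and 1522 (-0.12 ± 0.06, limma adjusted p = 0.23), narrowly apart. Its second probe set overlapped and had the opposite sign (0.07 ± 0.11). Both carry suffix letters. Xpa, which verifies the lesion, read 211, 244 and 214 against 204, 203 and 195 (0.12 ± 0.10, adjusted p = 0.43), without overlap.

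Ercc1, a subunit of the nuclease that cuts 5 prime of the lesion, read 239, 121 and 127 in Rb null and 217, 229 and 192 in wild type embryos (-0.35 ± 0.20, limma adjusted p = 0.25). Rb null embryo 1 lay above every wild type embryo while the other Rb null embryos lay below them all. Without Rb null embryo 1 the gene passed the threshold as lower. Its nuclease partner Ercc4 gave -0.01 ± 0.13. Ercc3, a helicase of transcription factor TFIIH, read 374, 352 and 247 against 363, 442 and 376 (-0.26 ± 0.14, adjusted p = 0.24), and Ercc5, the 3 prime nuclease, gave -0.15 ± 0.14. Xpc lay below the filter at 121 ± 37.6 against 89.5 ± 14.8.

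Ercc2, the other TFIIH helicase, was read differently by its probe sets. The brighter one read 390, 384 and 457 in Rb null and 429, 438 and 424 in wild type embryos, with overlap (-0.06 ± 0.09, limma adjusted p = 0.66). The dimmer one read 355, 314 and 310 against 262, 246 and 256, without overlap (0.30 ± 0.09, adjusted p = 0.048, where 12.8% of all tested probe sets were higher). It was picked for naming after its values were seen. Of 6 members with more than 1 tested probe set, the dimmer minus the brighter change was 0.37 for Ercc2, 0.23 for Ddb1, 0.21 for Xrcc1, 0.19 for Rad23b, 0.03 for Ung and -0.13 for Lig3.

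Of 8 further nucleotide excision genes tested, 1 fell (12.5%, against 9.5% of all tested genes). Gtf2h1, a core subunit of TFIIH, read 777, 730 and 759 against 948, 861 and 918, without overlap (-0.25 ± 0.07, limma adjusted p = 0.029). The call held without wild type embryo 2 but ended without any other embryo (adjusted p from 0.059 to 0.095).

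**Figure D3:**
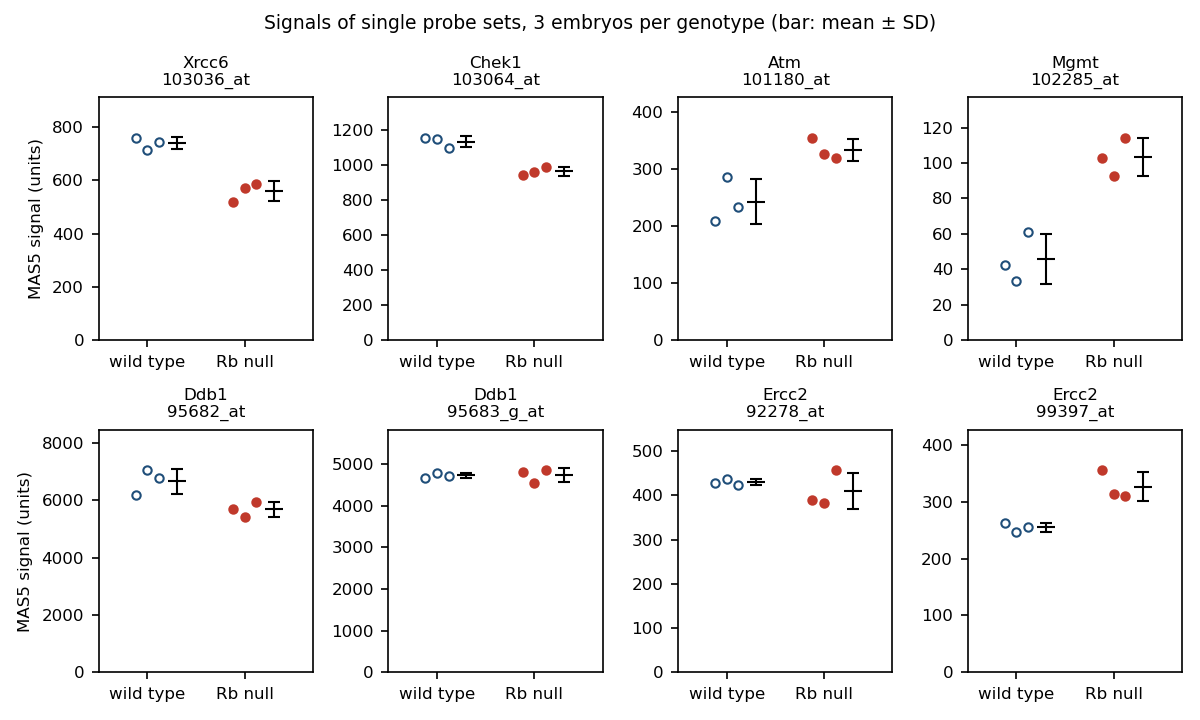
MAS5 signal of single probe sets in 3 wild type (open) and 3 Rb null (filled) embryos, with mean ± SD as bars, on axes that start at 0. Xrcc6, Chek1, Atm and Mgmt have groups apart. For Ddb1 and for Ercc2, 1 probe set shows the groups apart and the other shows them overlapping.

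Mismatch repair corrects bases that the replication fork has paired wrongly. Neither tested member passed limma's threshold and 0 had an unadjusted p below 0.05 (against 36.5% of all tested genes). Pms2, the endonuclease subunit, read 303, 336 and 361 in Rb null and 359, 378 and 363 in wild type embryos (-0.12 ± 0.09, adjusted p = 0.36). Msh3, which recognises insertion and deletion loops, read 290, 340 and 322 against 336, 347 and 332 (-0.08 ± 0.09, adjusted p = 0.57). The groups overlapped for both. Msh6, which recognises single mispairs, lay below the filter at 97.0 ± 9.49 against 78.9 ± 10.8.

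Of the Fanconi anaemia genes, Fancg, a core complex subunit, read 254, 234 and 272 against 211, 199 and 223, without overlap (0.22 ± 0.10, limma adjusted p = 0.16). Fancc, another core subunit, read 456, 380 and 515 against 488, 347 and 417, with overlap (0.10 ± 0.14, adjusted p = 0.66). Neither passed, and 0 of the group had an unadjusted p below 0.05 (against 36.5% of all tested genes). Of the 2 further genes tested, Usp1, which removes ubiquitin from the activated complex, came nearest (-0.09 ± 0.06, adjusted p = 0.34). In translesion synthesis, where polymerases copy across damage, Ube2n, a ubiquitin-conjugating enzyme, came nearest of 5 tested genes (-0.13 ± 0.05, adjusted p = 0.10). It passed after equal median scaling (-0.21, adjusted p = 0.019).

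Mgmt, which removes alkyl groups from guanine directly, read 103, 92.6 and 114 in Rb null and 42.6, 33.2 and 60.9 in wild type embryos. The groups did not overlap, but every signal was under the limit of 150.1, and detection calls were not used here. With no signal filter, where 6.73% of all genes were higher, it passed as higher (limma adjusted p = 0.030). No size is given for this difference, since its signals were not set against background.

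Over all listed further genes of these pathways, 52 of 118 were tested, and 1 rose (1.92%, against 13.1% of all tested genes) while 4 fell (7.69%, against 9.5%). Their median change was -0.04. The number that fell ranged from 1 to 5 on leaving out single embryos, with 2 without Rb null embryo 1, Rb null embryo 2 or wild type embryo 1 and 1 without wild type embryo 3. Of these genes Lig1 kept its call throughout. For comparison, 8 of 22 tested replication and S phase genes fell (36.4%), with a median change of -0.21. Of 7 tested p53 targets of the damage response, 1 fell (14.3%). It was Gadd45a, which read 1353, 1304 and 1545 against 1869, 1882 and 1936 (-0.43 ± 0.07, limma adjusted p = 0.0050). Whether the repair genes differ from these lists was not tested.

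**Figure D4:**
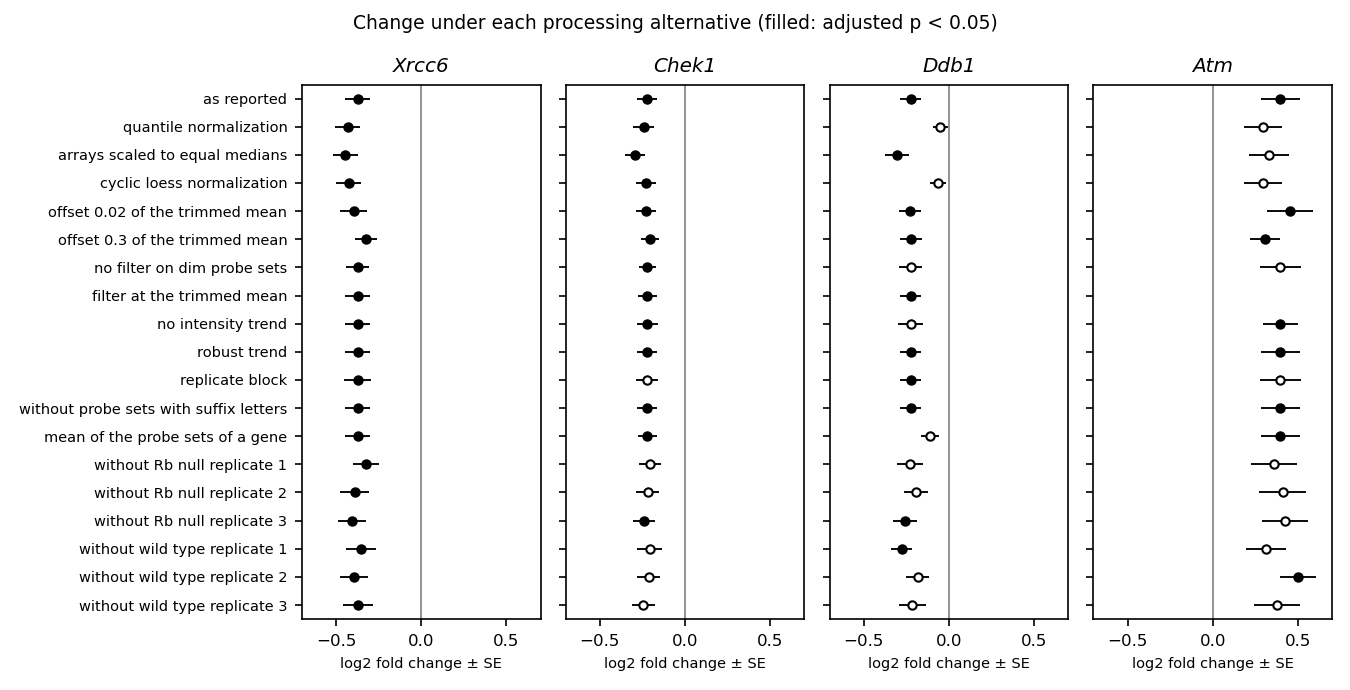
Change ± SE of the 4 members past the threshold under the reported setting and each of 18 alternatives, filled where the limma adjusted p was below 0.05. Xrcc6 is filled in every row, whereas Chek1, Ddb1 and Atm keep their sign and lose the threshold in several rows; Atm has no value at the strictest filter.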

How the data were processed

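The authors deposited one intensity per probe set and embryo, computed with MAS5 per the submitters' processing notes, whose version and scaling target are not given in the sources used here. The values were linear and their 2% trimmed means were 500.2 on all 6 arrays. Probe sets were named by the platform annotation (10833 with 1 symbol, 396 with several, 1193 with none), and 66 array controls were left out of the tests. Signals were put on a log2 scale after adding 50.02, which is 0.1 of that trimmed mean. Testing kept probe sets whose mean signal exceeded 150.1, or 0.3 of it. The test of Rb null against wild type was limma (version 3.58.1, R version 4.3.3), two-sided, with a prior variance that follows intensity and Benjamini-Hochberg adjustment over every tested probe set. A value given once per array was tested by exact permutation, two-sided. The script was tested on simulated data. Precision is limited by having 6 arrays. The p-values of limma set a difference against the spread between these embryos, moderated by the prior variance. With 1 array per liver, that spread includes variation from dissection and array.

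The members, lists and rules were chosen with earlier results of these data known. Signals in every embryo were to be given for members past the threshold and for the 2 of smallest p in each pathway. Further genes of a pathway were to be named where past the threshold (at most 4 per list), or else the 1 of smallest p. Genes with other values were named to account for every member. Alternatives were other normalizations, offsets, filters, variance models, a replicate block, other handling of probe sets, and leaving out each embryo. All gene symbols are those of the platform annotation.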

Additional observations from a re-analysis of the deposited data

How the results depend on the processing

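Of 18 alternatives, Xrcc6 and, among the further genes, Lig1 kept their calls in each. The number of genes called was 1191 as reported and 714 to 982 on leaving out 1 embryo (717 without Rb null embryo 1, 714 without Rb null embryo 2 and 715 without wild type embryo 3). Members that fell numbered 3 as reported and 1 to 3 without single embryos, with 1 without Rb null embryo 2, wild type embryo 2 or wild type embryo 3. Members that rose numbered 1 as reported, 2 with no intensity trend, and 0 after quantile normalization, equal median scaling or cyclic loess, at the strictest filter of 500.2 and with the replicate block. Without single embryos it was 0 to 1. The further genes that rose numbered 0 after equal median scaling, 2 with no intensity trend and 0 to 1 without single embryos, and those that fell numbered 8 after equal median scaling and 1 to 5 without single embryos. The median change of the members was -0.0652 after quantile normalization, -0.0876 after equal median scaling, -0.0631 after cyclic loess, 0.0006 with no filter, -0.06 at the strictest filter and -0.0396 to -0.0181 without single embryos. That of all tested genes was -0.0156, -0.0499 and -0.0101 after these normalizations, in the same order. It was 0.0313 with no filter, -0.0203 at the strictest filter and 0.0155 to 0.0283 without single embryos.

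Signs turned for members near 0 that did not pass. Nbn read -0.0680, -0.0184 and -0.0590 and Prkdc -0.0338, -0.0009 and -0.0260 after quantile normalization, equal median scaling and cyclic loess, and Rad21 read -0.0547 after equal median scaling. Without single embryos the ranges were -0.0413 to 0.10 for Nbn, -0.0597 to 0.17 for Prkdc, -0.0046 to 0.0582 for Rad21 and -0.0115 to 0.21 for Fancc. The cause of these changes was not tested. The labels do not say that a replicate number marks a litter or batch. The deviations of same-numbered embryos correlated at -0.06, 0.05 and 0.27, and not every embryo correlated best with its own number. Those of differently numbered embryos correlated at -0.25 to 0.22. With 3 embryos per genotype these values cannot decide whether a number marks a shared litter or batch. With the replicate block 1127 genes were called, of which 2 were members, Xrcc6 and Ddb1. Dim members had wider intervals, and Mgmt, Rad54l, Rad9a, Xpc and Msh6 were too dim to be tested at the signal limit used.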
